A study of Mus musculus with 80 samples.

Results

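Genes of cholesterol and fatty acid synthesis were followed through 12 RNA-seq libraries of embryonic stem (ES) cells of the mouse, which renew themselves in culture and can form every tissue of the embryo. The set holds 37 genes, taken by symbol from a list that was chosen with earlier results of these data known. Counts of members beside those of all genes are therefore descriptions. The set has 18 enzymes of the sterol pathway, 9 enzymes of fatty acid synthesis and desaturation, and 5 regulators. It also has 4 genes of sterol transport and efflux, and Ggps1, which draws farnesyl diphosphate off the sterol pathway. These are 37 of the 37889 symbols listed in at least 1 of the 12 tables, and 34 of them are among the 11636 genes that could be tested in the Sall4 libraries. Some other genes of these pathways are not analysed here.

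Cells build cholesterol from acetyl-CoA through mevalonate, farnesyl diphosphate, squalene and lanosterol, and they build fatty acids from the same acetyl-CoA. Both pathways are driven by the SREBP transcription factors, which are encoded by Srebf1 and Srebf2 and held in the endoplasmic reticulum by SCAP and the INSIG proteins while sterols are plentiful. When sterols run low, the SREBPs are cut free and switch on the synthesis genes together with Insig1, whereas excess sterol acts through the LXR receptors to switch on the efflux pumps Abca1 and Abcg1.

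The libraries came from a study of SALL4 and SALL1, spalt-like zinc finger transcription factors, in ES cells. Sall4 het (genotype Sall4flox/-) and Sall4 KO (Sall4 delta/-) had 2 libraries each, as did Sall4 KO cells transfected with a mutant Sall4A (KO plus mutant), which carry a Flag-SALL4A-MUT transgene in replicate 2. Which residues the mutant changes is not given in the labels. There was 1 library each of Sall4 KO transfected with WT SALL4A (KO plus WT), of the double knockout Sall1-/-/Sall4-/- (DKO), of the wild-type cells used for it, of Sall1 het (Sall1flox/-), of Sall1 KO (Sall1 delta/-) and of the wild-type line TT2. The Sall4 het, KO and mutant cells of both replicates therefore share 1 Sall4 allele that is lost in all of them. Strain labels read C57BL/6J for the replicate 1 libraries, KO plus WT, the DKO pair and the Sall1 pair, 129P2/OlaHsd (line E14.1) for the replicate 2 libraries, and (C57BL/6NCrlj x CBA/JNCrlj)F1 for TT2. The 2 libraries of each Sall4 group carry the same biosample record in spite of their different strain labels, so nothing says that they came from separate cultures, and p-values measure only the spread between these libraries. Values are FPKM, except RPKM in the 3 replicate 2 libraries; both are scaled per kilobase of transcript. Neither keeps the number of reads, and the depth behind a value is unknown.

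The 10 highest entries held 10.2% to 82.7% of the sum of values per table. The ES cell gene Pou5f1 was high in all 12 libraries (453 to 1703). Sall4 itself was listed at 196 and 64.2 in Sall4 het against 358 and 218 in Sall4 KO, and at 17.6 in the wild-type cells against 109 in the library labelled DKO. In the libraries labelled as given SALL4A it was below KO, at 77.4 and 161 with the mutant form and 97.4 with the wild-type form. These values go against the labels, although the value covers the gene as a whole, deleted exons and others alike, and so checks no label; Sall4 KO, DKO, KO plus mutant and KO plus WT therefore mean the libraries so labelled, and every direction drawn from them rests on the label. Sall1 was listed at 13.9 in the wild-type cells and 2.27 in DKO, and at 21.8 in Sall1 het and 13.3 in Sall1 KO.

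In Sall4 KO against Sall4 het, most sterol enzymes, part of the fatty acid enzymes and the SREBP inhibitor gene Insig1 were lower in both replicate pairs, and the efflux pump gene Abca1 was higher in both. Of the 34 members tested, 25 were lower in both pairs, against 29.9% of all genes tested. These were 13 of 15 sterol steps, 6 of 9 fatty acid steps, Ggps1, Srebf1, Srebf2, Insig1, Stard4 and Npc1. Any log2 ratio below 0 was counted as lower, however small, such as -0.018 for Ggps1 and -0.051 for Hsd17b7 in replicate 1. By 1.5-fold or more in both pairs, 9 of 34 were lower, against 4.78% of all genes, and 1 of 34, Abca1, was higher, against 3.32%. No member and no other gene passed limma's test at an adjusted p of 0.05 (0 of 11636, 0.0%; the smallest Benjamini-Hochberg adjusted p was 0.110). At an unadjusted p under 0.05, limma gave 12 of 34 members lower, against 606 of 11636 genes (5.21%), and 1 of 34 higher, against 513 of 11636 (4.41%). Lower and higher therefore give the direction of a value, not a passed test. When each of the 6 libraries was left out in turn, 24 of 34 members kept their direction, and 13 of these also stayed within 1.5 times their log2 difference: Insig1, Pmvk, Sqle, Lss, Cyp51, Msmo1, Dhcr7, Acly, Acss2, Fasn, Scd1, Fads2 and Abca1. The same was not counted over all genes, so whether members are steadier than other genes is not known.

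**Figure D1:**
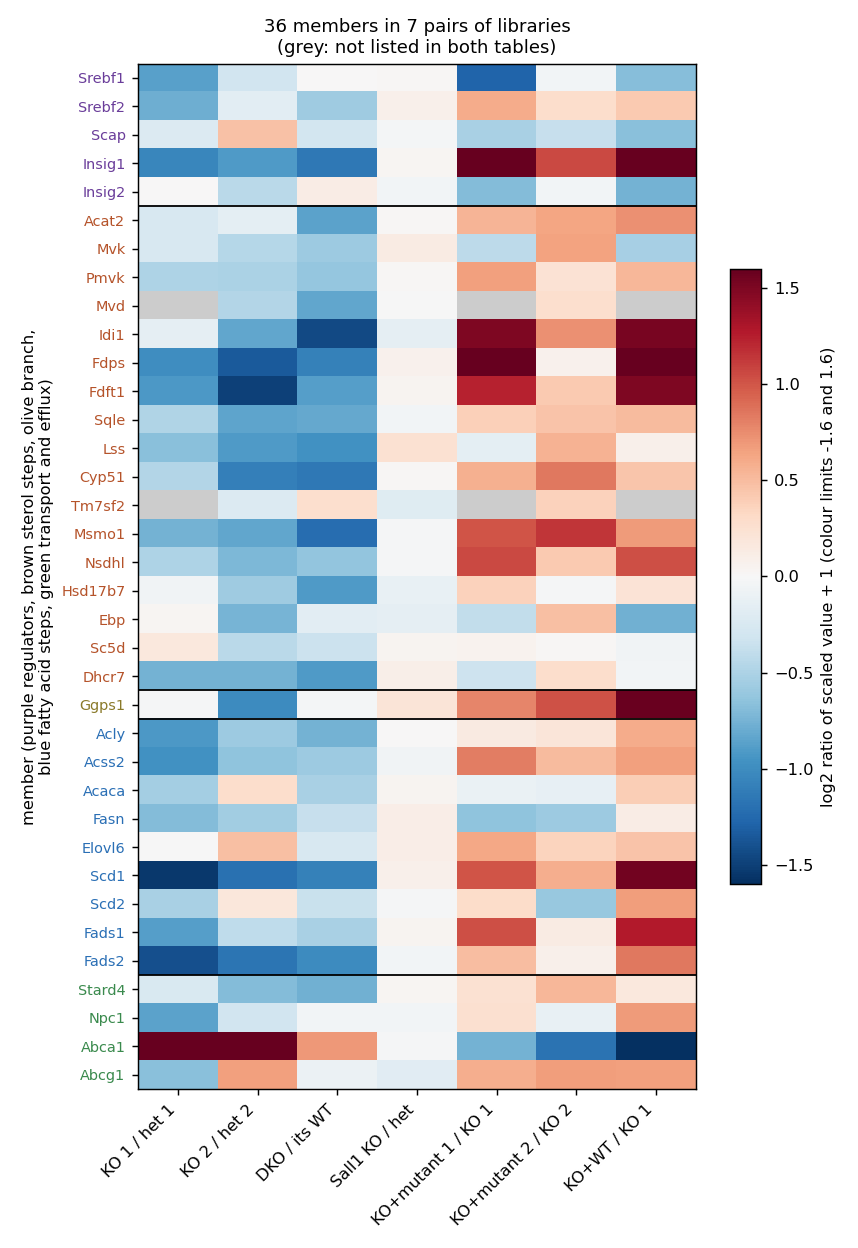
Log2 ratios of 36 members (lines) in 7 pairs of libraries (columns), on median-ratio scaled FPKM or RPKM with 1 added; blue is lower and red higher in the first-named library, and grey marks members not listed in both tables. Blue fills most of the sterol block in the first 3 columns, the Sall1 column is nearly white (all 32 counted members within 1.5-fold), and Abca1 is the one member that is deep red in both Sall4 KO columns.

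Insig1 encodes the protein that retains SCAP in the endoplasmic reticulum and is itself a SREBP target gene. It was listed at 38.6 and 41.8 in Sall4 het (replicates 1 and 2) and at 17.6 and 23.8 in Sall4 KO, so the groups did not overlap. How many of all genes part in this way was not counted. Here and below, groups that do not overlap describe only where the values lie. The log2 difference of Insig1 was -0.98 ± 0.25 (SE, n = 2 libraries a group; adjusted p = 0.391 by limma). Srebf1 was listed at 66.2 and 35.8 in het and 34.7 and 31.2 in KO, and Srebf2 at 55.0 and 30.6 in het and 30.7 and 29.5 in KO. Most of their difference lay in replicate 1 (log2 ratios -0.87 and -0.78), against -0.31 and -0.17 in replicate 2. Scap, the escort of the SREBPs, and Insig2 did not keep 1 direction over the pairs (log2 ratios -0.22 and 0.46 for Scap, 0.00 and -0.44 for Insig2).

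Among the sterol steps, Fdps and Fdft1 in the middle of the pathway had the lowest values relative to het. Fdps, which makes farnesyl diphosphate, was listed at 71.4 and 123 in het and 34.4 and 51.9 in KO. Fdft1, squalene synthase, was listed at 28.3 and 45.6 in het and 14.1 and 16.9 in KO. In both genes each KO library was below each het library, and the log2 differences were -1.17 ± 0.54 for Fdps (SE; limma adjusted p = 0.603) and -1.21 ± 0.38 for Fdft1 (limma adjusted p = 0.451). Leaving out 1 library moved Fdps from -1.77 (without het replicate 1) to -0.57 (without het replicate 2), and Fdft1 from -1.70 to -0.72 for the same libraries. Lss, which closes squalene epoxide into lanosterol, was listed at 30.7 and 33.6 in het and 18.4 and 18.9 in KO. Sqle, the squalene epoxidase before it, had a log2 difference of -0.67 ± 0.22, and the one for Lss was -0.79 ± 0.26. Of the later enzymes, Cyp51, Msmo1 and Dhcr7 had differences of about the size of that of Lss. Those of Hsd17b7, Ebp and Sc5d were smaller (-0.31, -0.36 and -0.13).

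The steps from lanosterol to cholesterol were mixed. Msmo1, which takes methyl groups off the sterol ring, was listed at 63.2 and 70.2 in het and 36.1 and 42.4 in KO. Dhcr7, the reductase of a last step, was listed at 42.9 and 41.1 in het and 24.2 and 25.8 in KO. Neither overlapped between the groups, with log2 differences of -0.79 ± 0.22 for Msmo1 (limma adjusted p = 0.406) and -0.76 ± 0.26 for Dhcr7 (limma adjusted p = 0.479). Cyp51, the lanosterol demethylase, was listed at 15.6 and 18.4 in het and 10.7 and 8.76 in KO, and Nsdhl, a sterol dehydrogenase, at 10.2 and 14.3 in het and 6.72 and 8.98 in KO. Both were again lower in each KO library, while Ebp and Sc5d, an isomerase and a desaturase of late steps, were lower only in replicate 2 (log2 ratios -0.74 and -0.43, against 0.03 and 0.17 in replicate 1).

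The first steps differed by less. Acat2, Mvk and Pmvk, which act from acetyl-CoA to phosphorylated mevalonate, had log2 differences of -0.21 ± 0.21, -0.36 ± 0.33 and -0.50 ± 0.23; Acat2 can share reads with a near-identical neighbouring copy and is uncertain. Idi1, the isomerase that follows them, was listed at 16.5 and 32.1 in het and 14.5 and 19.2 in KO, lower in each KO library than in its het partner, although the groups overlapped. Ggps1 was lower in replicate 2 and close to level in replicate 1 (log2 ratio -0.018), with 10.9 and 24.3 in het and 10.4 and 12.6 in KO. Mvd and Tm7sf2 could be compared in replicate 2 only, with log2 ratios of -0.47 and -0.22. Hmgcs1 was not analysed in this comparison.

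Of the fatty acid steps, the desaturases Scd1 and Fads2 differed most. Scd1, which puts the double bond into oleate, was listed at 19.1 and 10.6 in het and 5.67 and 4.43 in KO. Fads2, which starts the making of polyunsaturated fatty acids, was listed at 40.3 and 32.5 in het and 14.1 and 15.1 in KO. The groups were well apart in both, with log2 differences of -1.37 ± 0.23 for Scd1 (limma adjusted p = 0.306) and -1.28 ± 0.22 for Fads2 (limma adjusted p = 0.317). Acss2, which makes acetyl-CoA from acetate, was low throughout, at 4.66 and 2.88 in het and 1.79 and 1.602 in KO. Fasn, fatty acid synthase, was listed at 95.2 and 55.7 in het and 56.6 and 40.8 in KO, and Fads1, the neighbouring desaturase, at 17.5 and 15.4 in het and 8.75 and 12.3 in KO. Fasn was lower within each replicate, but its KO replicate 1 was slightly above its het replicate 2. Acly, which makes cytosolic acetyl-CoA from citrate, had a log2 difference of -0.75 ± 0.25. Acaca, Elovl6 and Scd2, for carboxylation, elongation and a further desaturase, were higher in KO in replicate 2 (log2 ratios 0.29, 0.48 and 0.17) and lower or level in replicate 1 (-0.54, -0.01 and -0.51).

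Abca1, the pump that exports cholesterol, went the other way. It was listed at 1.19 and 0.616 in het and at 5.91 and 5.56 in KO, a log2 difference of 1.77 ± 0.22 (SE; limma adjusted p = 0.298). As 1 is added to each value before taking logs, the ratio of so low a gene is understated. Abca1 passed the limit of 1 in 2 libraries through its KO values, and would have through its KO plus mutant values alone. Its partner Abcg1, also an LXR target, was lower in replicate 1 (2.95 to 1.42) and higher in replicate 2 (0.665 to 1.80).

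**Figure D2:**
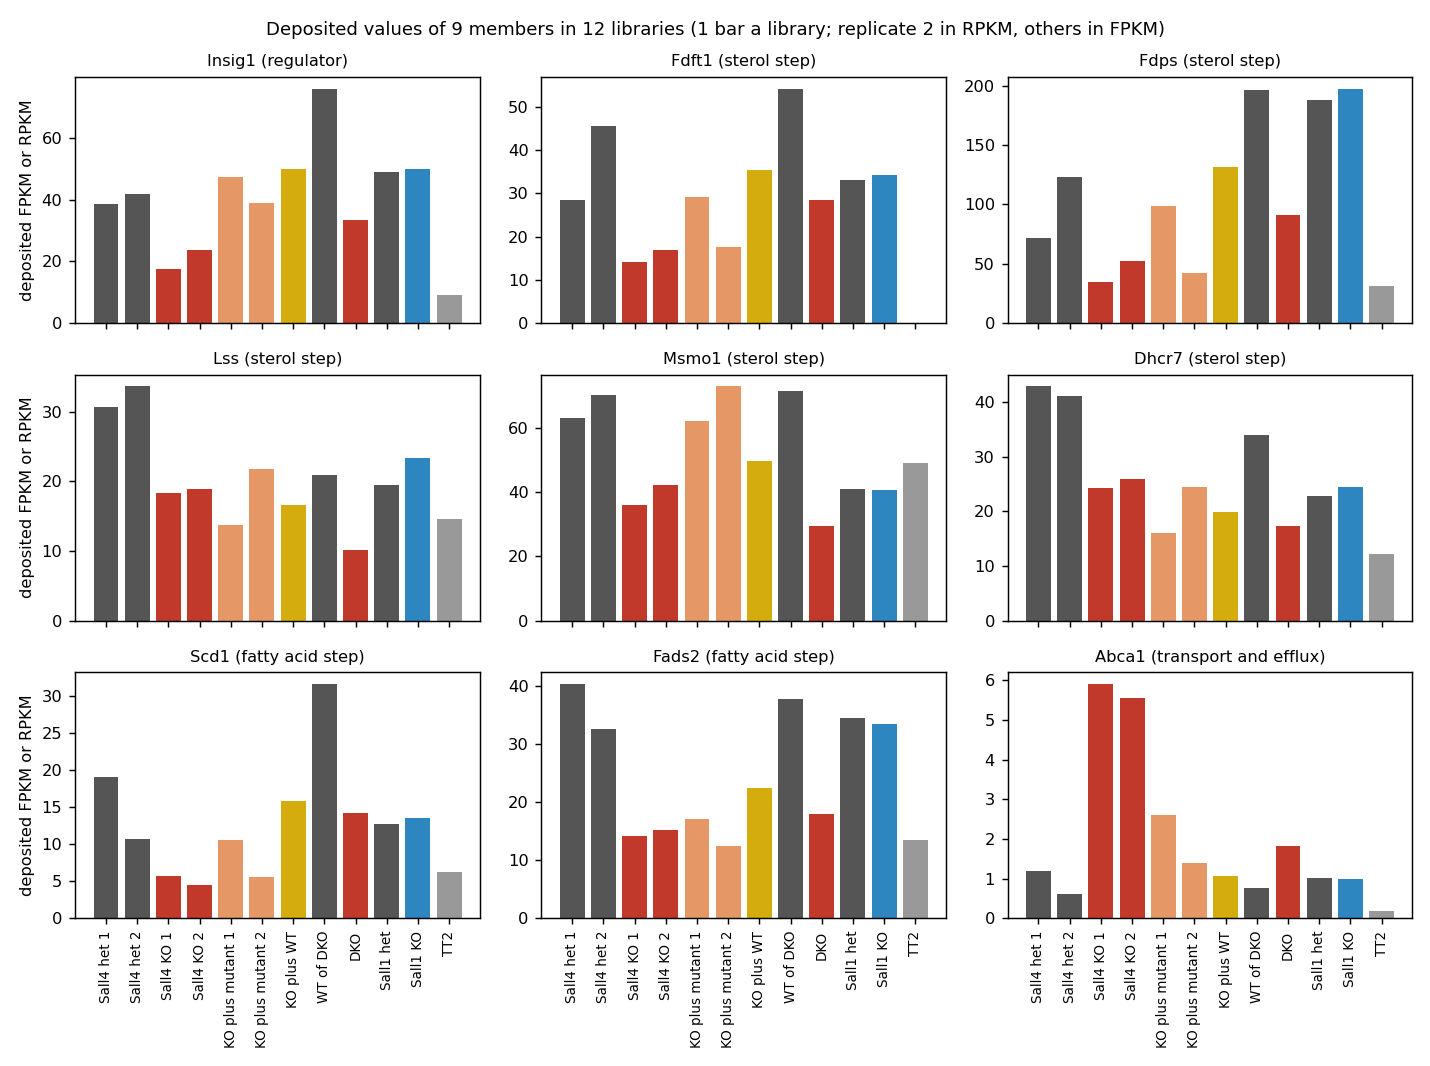
Deposited FPKM (replicate 2 libraries: RPKM) of 9 members in each of 12 libraries, 1 bar a library; dark grey marks het and wild-type controls, red Sall4 KO and DKO, orange KO plus mutant, yellow KO plus WT, blue Sall1 KO and light grey TT2. The red bars stand below the dark grey bar they pair with in 8 of the 9 genes and above it in Abca1.

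The regulatory letters upstream of the genes were looked at in RefSeq promoter windows of build GRCm38.p6, since SREBPs act at a sterol regulatory element next to sites of the factors NF-Y and SP1. Windows were found for 28 of the 37 members, using the most upstream start of each gene and the 250 bases before it. They were searched on both strands for TCACNCCAC (a sterol regulatory element), CCAAT (NF-Y) and GGGCGG (SP1), each counted on its own whether or not matches of different motifs overlapped. CCAAT was in 13 of 15 sterol steps (86.7%) and 2 of 6 fatty acid steps, against 34.5% of 27018 genes with a window and 37.6% of those among the genes tested. GGGCGG was in 14 of 15 sterol steps (93.3%) and 3 of 6 fatty acid steps, against 32.96% and 61.26%. TCACNCCAC was in Hmgcs1 alone, 1 of 28, against 1.03% of all genes with a window. A match is a string of letters and not a measured site, and no match says only that these letters are not in the window. The windows printed are those of Insig1 and of the sterol steps with a window that were lower by 1.5-fold or more in both pairs, which were chosen after their values were seen; capitals mark CCAAT or its reverse complement ATTGG, and the last base is the one before the start of the transcript.
Insig1 (chr5:28071162-28071411, + strand): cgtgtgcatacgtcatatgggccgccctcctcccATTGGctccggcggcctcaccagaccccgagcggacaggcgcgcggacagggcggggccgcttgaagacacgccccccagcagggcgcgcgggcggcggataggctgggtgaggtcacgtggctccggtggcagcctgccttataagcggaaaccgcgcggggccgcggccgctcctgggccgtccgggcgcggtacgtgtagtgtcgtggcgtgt
Lss (chr10:76531355-76531604, + strand): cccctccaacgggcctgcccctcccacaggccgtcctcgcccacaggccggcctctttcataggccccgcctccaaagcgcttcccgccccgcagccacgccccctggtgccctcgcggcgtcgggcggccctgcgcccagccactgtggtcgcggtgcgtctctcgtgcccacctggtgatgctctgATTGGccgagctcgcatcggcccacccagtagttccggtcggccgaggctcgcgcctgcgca
Msmo1 (chr8:64733579-64733828, - strand): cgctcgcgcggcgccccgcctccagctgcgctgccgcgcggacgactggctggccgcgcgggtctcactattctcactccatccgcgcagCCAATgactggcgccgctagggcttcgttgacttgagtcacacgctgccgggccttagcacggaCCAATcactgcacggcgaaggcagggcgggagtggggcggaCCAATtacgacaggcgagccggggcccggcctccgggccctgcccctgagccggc
Dhcr7 (chr7:143822917-143823166, + strand): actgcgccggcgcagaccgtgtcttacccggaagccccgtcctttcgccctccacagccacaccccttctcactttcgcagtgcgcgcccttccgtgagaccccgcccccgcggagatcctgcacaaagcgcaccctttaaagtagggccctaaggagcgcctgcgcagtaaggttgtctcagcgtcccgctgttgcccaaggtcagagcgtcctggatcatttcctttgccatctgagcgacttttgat
Msmo1 holds CCAAT 3 times, at 156, 92 and 51 bases before the start (counted at the base of the match nearest the start), Lss once at 58 bases and Insig1 once at 212 bases, while Dhcr7 holds GGGCGG only. The log2 differences of these 4 genes in Sall4 KO lay between -0.76 for Dhcr7 and -0.98 for Insig1. In mm9, the build of the deposited tables, members without a printed window lie at chr3:88897509-88905889 (Fdps), chr14:63741298-63796630 (Fdft1), chr19:44468939-44482199 (Scd1), chr19:10138653-10175993 (Fads2) and chr4:53043660-53172767 (Abca1).

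The sterol and fatty acid steps were then set side by side. In Sall4 KO against het, the median log2 difference was -0.61 over 15 sterol steps and -0.65 over 9 fatty acid steps, against 0.00 over all 11636 genes, so the medians differed by 0.03. The order of the classes turned between the replicates. In replicate 1 the fatty acid steps were lower (median -0.89, against -0.49 for the sterol steps), and in replicate 2 the sterol steps were (-0.76, against -0.56). The fatty acid steps also spread more, from -1.37 for Scd1 to 0.23 for Elovl6, where the sterol steps ran from -1.21 to -0.13, all below 0. No test was made of these medians, because the members were chosen with results of these data known.

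**Figure D3:**
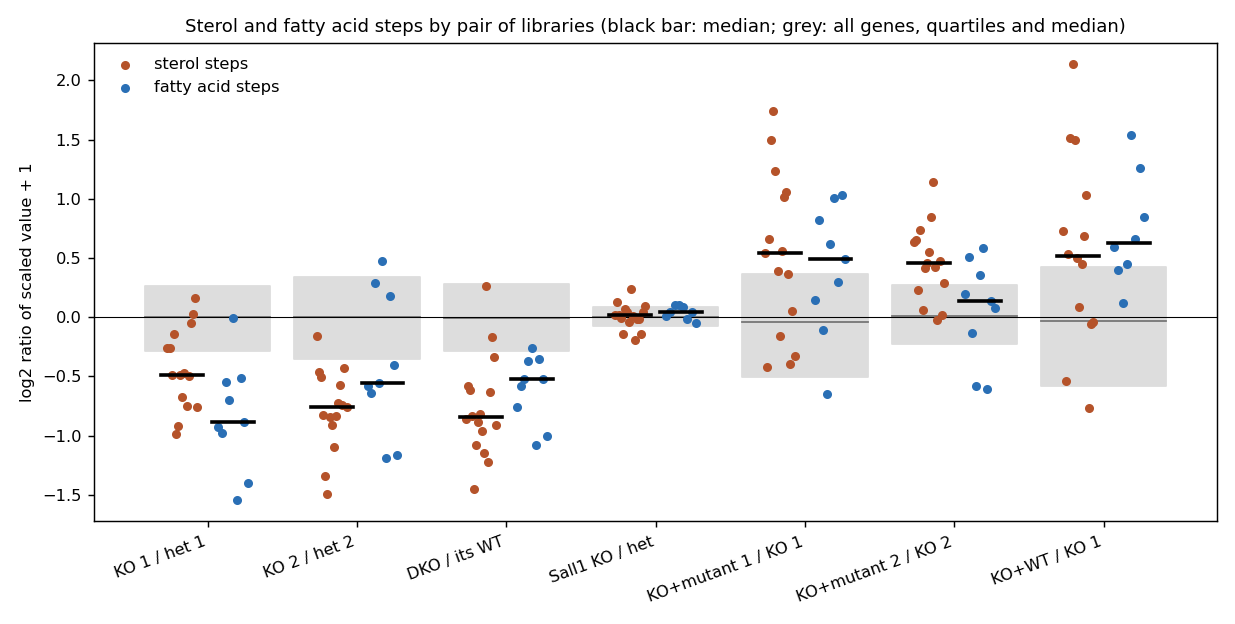
Log2 ratios of scaled values + 1 for each sterol step (brown) and fatty acid step (blue) in 7 pairs of libraries; black bars are class medians, and grey boxes with a line are the quartiles and median of all genes counted. Most points of both classes lie below the grey boxes' centre in the Sall4 KO and DKO pairs, close to it in the Sall1 pair, and mostly above it in the pairs with SALL4A put back.

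Markers of primitive endoderm, an early lineage that ES cells can form, were higher in the same KO libraries. Their summed level over 9 genes, most of it Col4a1 and Lama1, was 21.2 and 10.0 in het and 39.7 and 27.9 in KO. Of the 9, 2 were at 0 or not listed in each replicate 2 library of these groups. The 4 markers tested were all higher in both pairs (for example Dab2, 1.69 and 1.21 in het, 5.325 and 3.61 in KO). How many of all genes were higher in both pairs was not counted. Gata4 (0.824 and 0.200 in het, 1.95 and 2.11 in KO) passed the limit of 1 in 2 libraries only through its KO values. Trophoblast markers summed to 112 and 58.1 in het and 160 and 70.8 in KO over 7 genes, but only 2 of the 5 tested were higher in both pairs. Hand1 was (2.77 and 1.25 in het, 7.33 and 3.23 in KO), whereas Elf5 was lower in both (0.838 and 2.15, then 0.294 and 0.502) and Krt8 and Krt18 were higher in replicate 1 only. The sum over 9 ES cell markers, most of it Dppa5a and Pou5f1, was 3385 and 4678 in het and 3474 and 5307 in KO. Of the 7 ES cell markers tested, 3 were lower in both pairs, against 29.9% of all genes tested, and 2 were higher in both. The higher ones were Pou5f1 (488 and 706 in het, 641 and 863 in KO) and Dppa5a (1154 and 2080, then 1442 and 2707). The lower ones were Zfp42 (491 and 503, then 396 and 429), the pluripotency factor gene Nanog and Utf1. Nanog was listed at 137.5 and 397 in het and 88.9 and 208 in KO, and Utf1 at 247 and 264 in het and 164 and 192 in KO. Whether these changes have a part in the lower synthesis genes was not tested, and in bulk RNA fewer cells that express a gene and less RNA per cell cannot be told apart.

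The DKO pair shares no library with the Sall4 KO and het libraries, and many of the same members were lower in it. Of 33 members counted (at 5 or more in at least 1 library), 17 were lower in DKO by 1.5-fold or more, against 9.34% of 8621 genes. They were 12 of 16 sterol steps, 3 of 9 fatty acid steps (Acly, Scd1 and Fads2), Insig1 and Stard4, a carrier of sterol between membranes. By 2-fold or more, 7 of 33 were lower, against 3.67%. None of the 33 was higher by 1.5-fold or more, against 965 of 8621 genes. Among 31 members counted in both comparisons, 16 were lower in both Sall4 KO pairs and by 1.5-fold or more in DKO, against 4.07% of 7867 genes. With 1 library on each side the pair has no replicate check.

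Idi1 differed most, at 56.6 in the wild-type cells and 19.8 in DKO, a log2 ratio of -1.45. Msmo1 was listed at 71.4 and 29.5 (log2 ratio -1.22), Cyp51 at 26.4 and 11.1 (-1.15), and Insig1 at 76.1 and 33.3 (-1.14). These 4 genes were all lower in each Sall4 KO library than in its het partner as well. Fdps was listed at 197 and 90.9, Fdft1 at 54.2 and 28.4, Lss at 20.97 and 10.1, Dhcr7 at 33.96 and 17.3 and Nsdhl at 16.8 and 10.3. Scd1 was listed at 31.6 and 14.2, Fads2 at 37.7 and 17.98, Fads1 at 21.8 and 14.6 and Acss2 at 6.14 and 3.71. Every one of these was lower in DKO, whereas Srebf1 (15.97 and 15.8) and Ggps1 (12.1 and 11.6) were level. Srebf2 was listed at 55.8 and 36.6, and Fasn at 34.5 and 26.1. Abca1 was again higher, at 0.759 in the wild-type cells and 1.81 in DKO, but both values are under the limit of 5 and it was not counted. Of the members counted, Tm7sf2 (11.96 and 14.3, log2 ratio 0.265) and Insig2 (8.98 and 9.70, log2 ratio 0.12) were higher in DKO, by less than 1.5-fold.

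The median log2 ratio in DKO was -0.84 over 16 sterol steps and -0.52 over 9 fatty acid steps, against -0.01 over all genes, so the sterol steps stood lower by 0.32. Over the 31 members counted in both comparisons, the log2 difference in Sall4 KO and the log2 ratio in DKO had a Pearson r of 0.579 (Spearman rho 0.642), against 0.255 (0.264) over 7867 genes. This is a description across genes, which share their libraries within each comparison and are not independent.

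**Figure D4:**
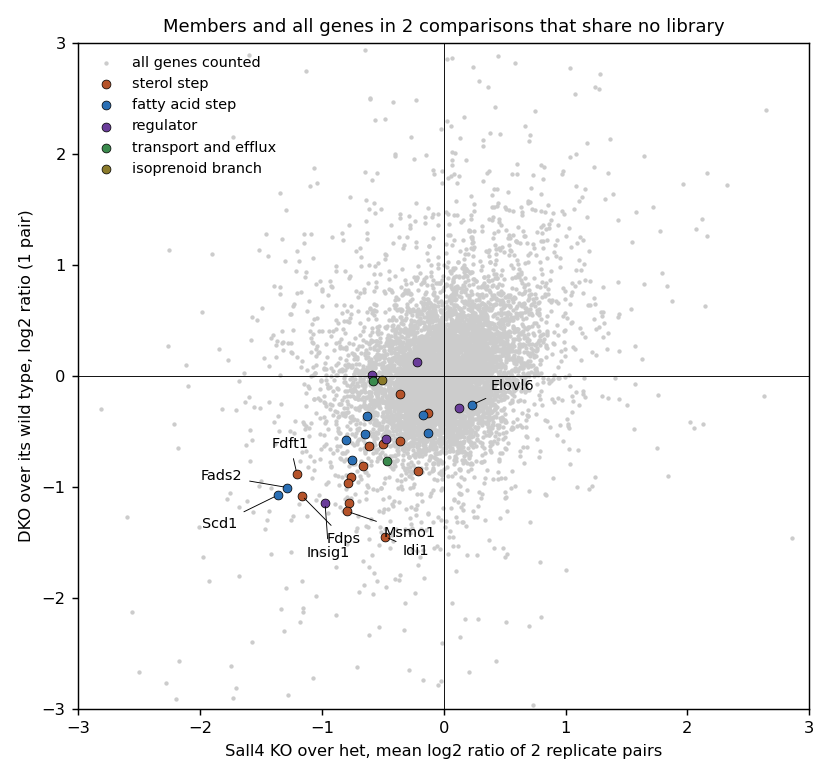
Mean log2 ratio of the 2 Sall4 KO over het pairs (x) against the log2 ratio of DKO over its wild-type cells (y); grey points are genes counted in both (7821 of 7867 fall inside the limits of 3), and coloured points are 31 members by class. Most coloured points lie below and to the left of 0, with Elovl6 and Scap to the right of 0 and Insig2 and Srebf1 just above 0 on the y axis.

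The Sall1 het and KO tables have the same entries as the DKO pair, which allowed the 4 libraries to be ranked. DKO was the lowest of the 4 in 22 of 33 members, against 32.5% of 9040 genes, and the wild-type cells were the highest of the 4 in 25 of 33, against 26.3%. Both ends of the DKO pair thus stood apart from the Sall1 libraries. Insig1 was listed at 49.0 in Sall1 het and 50.2 in Sall1 KO, between the 76.1 and 33.3 of the DKO pair. Idi1 was listed at 51.3 and 46.6 in the Sall1 pair, close to the wild-type cells, and Msmo1 at 40.9 and 40.6, nearer to DKO.

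The DKO pair also differed in other markers. The trophoblast markers summed to 39.2 in the wild-type cells and 164 in DKO, with the keratin gene Krt8 at 4.79 and 63.9 and Krt18 at 4.49 and 73.2. Primitive endoderm markers summed to 23.2 and 19.6. Lama1 (7.02 and 1.70) and Col4a1 (13.1 and 11.1) were lower in DKO, and they alone reached 5 in either library. Foxa2 was also lower (0.100 and 0.0193). Gata4 (0.868 and 2.14) and Dab2 (1.34 and 2.84) were higher, as in Sall4 KO. Gata6, Sox17, Sox7 and Pdgfra were higher as well, but all of them were under 1 in both libraries. Nanog was listed at 425 in the wild-type cells and 193 in DKO, whereas Utf1 was higher in DKO (37.65 and 103.8), unlike in Sall4 KO. Of the 9 ES cell markers, 1 was lower and 1 higher by 1.5-fold or more, and the median log2 ratio was -0.001. Fibroblast markers, the sign of feeder cells, summed to 216 and 226, with the collagen gene Col1a1 at 97.9 and 103, against 75.1 and 71.3 in the Sall1 pair and 3.13 to 53.0 in the Sall4 libraries with and without SALL4A. The part of these markers in the lower synthesis genes was not tested.

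In Sall1 KO against Sall1 het, 0 of 32 members counted differed by 1.5-fold either way, against 2.36% of 8173 genes. The median log2 ratio was 0.02 over 16 sterol steps and 0.04 over 8 fatty acid steps, and the member ratios ran from -0.19 for Tm7sf2 to 0.24 for Lss. Fdps was listed at 188 and 197, Fdft1 at 33.05 and 34.2, Lss at 19.5 and 23.4, Cyp51 at 16.4 and 16.6, Dhcr7 at 22.8 and 24.5 and Nsdhl at 14.6 and 14.5 (het, then KO). Scd1 was listed at 12.7 and 13.5, Fads1 at 17.5 and 18.1, Fads2 at 34.5 and 33.4, Fasn at 37.5 and 40.5 and Acss2 at 4.78 and 4.56. The regulators were as close, with Srebf1 at 14.6 and 14.8 and Srebf2 at 38.2 and 40.6, and so were Ggps1 at 17.3 and 20.2 and Abca1 at 1.01 and 0.978. Whether the Sall1 and DKO ratios differ was not tested, as each rests on 1 pair. Across 30 members, the Sall1 log2 ratio had a Pearson r of -0.100 with the Sall4 KO log2 difference (Spearman rho -0.094; -0.059 and -0.097 over 7493 genes), again only as a description across genes.

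In the libraries labelled as Sall4 KO given SALL4A, part of the set was higher than in KO, although Sall4 itself was listed lower there. These comparisons share the Sall4 KO libraries with the comparison to het, and no relation between them is given. In KO plus mutant against KO, 21 of 34 members were higher in both replicate pairs, against 29.6% of genes tested, and 5 of 34 by 1.5-fold or more in both, against 4.07%. These 5 were Insig1, Idi1, Msmo1, Ggps1 and Scd1. Limma called no gene at an adjusted p of 0.05 (0 of 11636, 0.0%; smallest adjusted p 0.339). At an unadjusted p under 0.05 it gave 8 of 34 members higher, against 592 of 11636 genes (5.09%), and 2 of 34, Fasn and Abca1, lower, against 546 of 11636 (4.69%). With values as deposited, without scaling, the median of all genes itself stood at -0.28, and Mvk, Lss, Hsd17b7, Ebp, Sc5d, Acly, Fads2 and Npc1 had the opposite direction.

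Insig1 was listed at 47.4 and 39.04 in KO plus mutant, above both KO libraries and close to the het libraries. Its log2 difference from KO was 1.34 ± 0.25 (SE; limma adjusted p = 0.359). Msmo1, at 62.1 and 72.9, was likewise close to het (1.08 ± 0.22; limma adjusted p = 0.359). Idi1 was listed at 35.9 and 25.1, Ggps1 at 15.8 and 20.5, and Scd1 at 10.5 and 5.55. Idi1 and Ggps1 were above both KO libraries, and Scd1 was higher within each replicate. Abca1, at 2.60 and 1.39, was lower than in KO in both and still above its het partners (log2 difference from KO -0.97 ± 0.22; limma adjusted p = 0.392).

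Several genes differed between the 2 KO plus mutant libraries. Fdps was listed at 98.9 in replicate 1 and 41.8 in replicate 2, and Fdft1 at 29.1 and 17.6, so against KO their log2 ratios were 1.74 and 0.06 for Fdps and 1.23 and 0.41 for Fdft1. Nsdhl (12.7 and 9.56), Fads1 (16 and 10.5), Acss2 (3.35 and 2.13) and Fads2 (17.1 and 12.4) were also nearer to KO in replicate 2. Without that library, limma called 803 genes, among them Insig1, Idi1 and Fdps (adjusted p = 0.026, 0.040 and 0.021). That fit has 1 KO plus mutant library, 1 residual degree of freedom and a spread taken only from the het and KO libraries, so these calls are no replicated test of the mutant. Cyp51 (13.7 and 12.8) and Srebf2 (39.6 and 27.7) were higher than KO in both pairs after scaling (log2 ratios 0.56 and 0.85 for Cyp51, 0.60 and 0.28 for Srebf2). Lss (13.8 and 21.8) and Dhcr7 (16.1 and 24.4) were lower in replicate 1 and higher in replicate 2. Fasn, at 30.1 and 20.7, was lower in both pairs (log2 ratios -0.65 and -0.58). Srebf1, at 11.5 and 23.4, was lower in replicate 1 (-1.29) and level after scaling in replicate 2 (-0.04), and without KO plus mutant replicate 1 its log2 difference was 0.09.

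KO plus WT had 1 library. Against Sall4 KO replicate 1, 14 of 31 members counted were higher by 1.5-fold or more, against 18.4% of 8423 genes, and 5 were lower, against 24.9%. The higher ones were 6 of 14 sterol steps, 5 of 8 fatty acid steps, Insig1, Ggps1 and Npc1, and the lower ones were Srebf1, Scap, Insig2, Ebp and Abca1. The tables of KO plus WT and KO plus mutant replicate 1 follow another annotation than that of KO replicate 1, so the gene models can differ. Fdps was listed at 131 against 34.4 in KO replicate 1, Fdft1 at 35.3 against 14.1, Idi1 at 36.9 against 14.5, Insig1 at 50.1 against 17.6 and Scd1 at 15.8 against 5.67. All 5 were above KO by more than 2-fold, and Abca1, at 1.05 against 5.91, was below it. Msmo1 was listed at 49.7, Nsdhl at 12.6, Fads1 at 19.1, Fads2 at 22.3, Ggps1 at 28.5, Srebf2 at 35.2, Acss2 at 2.94 and Fasn at 52.2. Of these, Fasn alone was below KO replicate 1 in the deposited values, and it was level after scaling (log2 ratio 0.12). Lss (16.6), Dhcr7 (19.96), Cyp51 (12.7) and Srebf1 (17.96) showed no common direction.

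KO plus WT and KO plus mutant replicate 1 share 1 annotation and could be set against each other directly. Of 33 members counted, 2 differed by 1.5-fold or more, Ggps1 and Fasn, both higher with the wild-type SALL4A, against 8.71% of 8086 genes. The median log2 ratio was -0.01 over 17 sterol steps and 0.37 over 8 fatty acid steps, against 0.02 over all genes. Insig1 differed by 0.03 and Idi1 by -0.01 on the log2 scale, and Fasn by 0.73. With 1 library of KO plus WT, no interval can be given for these differences.

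TT2 entered no comparison because its table is at transcript level. There Srebf2 was listed at 66.4, Msmo1 at 49.2, Fdps at 31.2, Fasn at 27.3, Ggps1 at 24.2, Srebf1 at 17.97, Lss at 14.5, Fads2 at 13.4, Idi1 at 12.5, Fads1 at 12.4 and Dhcr7 at 12.2. Insig1 was listed at 9.17, Scd1 at 6.17, Cyp51 at 5.92, Nsdhl at 3.83, Acss2 at 2.62, Abca1 at 0.191 and Fdft1 close to 0 (3.69e-06). Insig1, Scd1 and Cyp51 were thus listed in TT2 at or below most of the other libraries, but values summed over transcripts are on another footing than those of the gene tables.

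Beyond the members, 41 other genes of sterol and fatty acid metabolism were listed, from import and esterification to elongation and the side branches, and 36 of them could be tested. Their median log2 difference in Sall4 KO against het was -0.05. In both pairs, 12 were lower (29.9% of all genes tested were) and 9 higher, a direction not counted over all genes. None passed limma at an adjusted p of 0.05. At an unadjusted p under 0.05 by limma, 3 were lower, against 5.21% of all genes, and 0 higher, against 4.41%. By 1.5-fold or more in both pairs, 2 of 36 were lower, against 4.78% of all genes, and 0 higher, against 3.32%. These 1.5-fold counts lay near those of all genes. Tmem97, a membrane protein of sterol handling, was listed at 64.6 and 102 in het and 35.7 and 39.5 in KO, a log2 difference of -1.13 ± 0.32 (SE; limma adjusted p = 0.410). Pcyt2, an enzyme of phosphatidylethanolamine synthesis, was listed at 46.9 and 43.4 in het and 23 and 30.2 in KO (-0.79 ± 0.26; limma adjusted p = 0.465). Both stood below het in each KO library. In DKO the median over 31 of these genes was -0.12. By 1.5-fold or more, 3 were lower (9.34% of all genes were) and 1 higher (965 of 8621 genes were). In the Sall1 pair the median was -0.02 with none past 1.5-fold (2.36% of all genes were).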

How the data were processed

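RNA was measured in 12 libraries of 80 samples; the other 68 were not analysed here. The authors deposited FPKM values, and RPKM values for the 3 replicate 2 libraries, per the file headers. Per the submitters' processing notes the series used TopHat, Bowtie 0.12.7, SAMtools and MACS 1.4.2 with build mm9; which made each table, and the RNA protocol, are not given in the sources used here. Entries of 1 symbol were summed. Libraries were brought to one scale by their median ratio (genes of value 1 or above throughout), and log2(value + 1) was used. The 6 Sall4 libraries entered one limma 3.58.1 model in R 4.3.3 (lmFit; eBayes, trend on) of group plus replicate number, for genes reaching 1 in 2 or more of them, two-sided, with Benjamini-Hochberg adjustment over 11636 genes. Replicate number is a term because the units differ between replicates. Single pairs got log2 ratios for genes reaching 5 in either library, and no test. The script was tested on simulated data. Ratios used pandas 2.3.3 and numpy 2.4.6 in Python 3.11.15, and figures matplotlib 3.10.9. No read totals are held, so no counting error is given. Members and lists were chosen with earlier results of these data known. Values in every library are given for members 1.5-fold or more the same way in both KO pairs, for Srebf1, Srebf2, Insig1, Fasn and Scd1, and for members past 2-fold in another pair; other pathway genes are named only where 1.5-fold the same way in both. The printed promoters depart from the first rule, which asked for TCACNCCAC, because no sterol step with both a window and a Sall4 KO value held it. Alternatives were the pseudocount, scaling, filters, the replicate term, the libraries fitted, the entry used per symbol, and leaving out each library.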

Additional observations from a re-analysis of the deposited data

Results flagged for a closer look

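Hmgcs1, which makes hydroxymethylglutaryl-CoA at the start of sterol synthesis, gave a signal in TT2, a library that entered no comparison. It was listed at 10.6 in TT2, at 27.2 in KO plus mutant replicate 1 and at 27.4 in KO plus WT, but at 0 in the tables of DKO, its wild-type cells, Sall1 het and Sall1 KO. The tables listing 0 place it on an unplaced part of chromosome 13 of mm9. As genes that every cell uses can be listed at 0 in such tables, no fold is given, and the cause was not tested.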

How the results depend on the processing

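For Sall4 KO against het, limma called 0 genes, and 1 with a pseudocount of 0.1, 1 with values as deposited, 1 with quantile normalization, 1 with no replicate block and 29 with only the 4 libraries of both groups. Leaving out 1 library at a time gave 0 to 18 (18 without KO plus mutant replicate 2). No member was among any of these. For KO plus mutant against KO the count stayed at 0, except for 803 without KO plus mutant replicate 2 (leave-one-out range 0 to 803), where the lone mutant library gets its spread from the other groups. The replicate block could change no median (sterol -0.61, fatty acid -0.65), as each group has 1 library per replicate, so this is no check. Deviations from group means correlated at 0.578 for het and KO over 11636 genes, but at 0.105 for het and mutant and 0.065 for KO and mutant. The 2 replicates thus differed alike in het and KO and hardly so in the mutant libraries, although all 3 groups share the replicate term. Units and strain labels both differ between the replicates, and the source of the shared difference was not tested. By replicate pair alone, the fatty acid median ran from -0.89 (replicate 1) to -0.56, the sterol median from -0.76 to -0.49 and their difference from -0.21 to 0.40. In DKO 12 or 13 sterol steps were lower by 1.5-fold, in Sall1 KO none, and with KO plus WT 6 were higher, or 4 as deposited, where the median of all genes was -0.25.

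Directions turned for some members, most of them with small differences, but also for Srebf1 and Idi1 in KO against het and for Fdps and Srebf1 in KO plus mutant against KO. In KO against het, Abcg1 was at 0.12 with a pseudocount of 0.1, 0.021 as deposited and 0.018 with quantile normalization. Leaving out 1 library gave ranges of -1.19 to 0.005 for Srebf1, -0.26 to 0.50 for Scap, -0.48 to 0.05 for Insig2, -1.02 to 0.046 for Idi1, -0.67 to 0.044 for Hsd17b7, -0.76 to 0.047 for Ebp, -0.44 to 0.17 for Sc5d, -0.54 to 0.28 for Acaca, -0.57 to 0.23 for Scd2 and -0.69 to 0.68 for Abcg1. In KO plus mutant against KO as deposited, Mvk was at -0.17, Lss at -0.10, Hsd17b7 at -0.057, Ebp at -0.26, Sc5d at -0.24, Acly at -0.14, Fads2 at -0.008 and Npc1 at -0.20, and with quantile normalization Dhcr7 was at 0.051. Leaving out 1 library gave -1.40 to 0.093 for Srebf1, -0.34 to 0.59 for Mvk, -0.035 to 1.86 for Fdps, -0.075 to 0.49 for Lss, -0.16 to 0.53 for Hsd17b7, -0.36 to 0.44 for Ebp, -0.14 to 0.23 for Sc5d, -0.30 to 0.28 for Dhcr7, -0.34 to 0.10 for Acaca, -0.56 to 0.25 for Scd2 and -0.17 to 0.30 for Npc1. The cause was not tested. These units hold no depth, so low genes such as Abca1 have an unknown counting error.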
